A study of Bos taurus with 8 samples.

Results

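The extraembryonic mesoderm and vascular precursor genes are KDR, APLNR, FOXF1, COL1A1, COL1A2, PDGFRB, HAND2, TAL1 and LMO2, taken by gene name from the deposited table of the series. Of these 9 names, 8 matched a gene of the table, out of 15267 genes in all, and TAL1 was not analysed here. The genes were selected on their measured levels in these 8 libraries, which were already known, so the levels and the differences between groups below are a description and carry no test of their own. Each library is RNA of 1 conceptus-half, a piece of a filamentous bovine conceptus at day 15 that had developed in vitro as an embryo, and the series title concerns embryos after slow-rate freezing. The FLI group (4 libraries) had received FGF2 (a fibroblast growth factor), LIF (a cytokine) and IGF1 (a growth factor related to insulin), and the control group (4 libraries) is labelled only as control. The labels give no doses, no length of exposure and no position of each piece along the conceptus. Libraries are called by the end of their titles, control 10, 20, 3M and 4M and FLI 20, 3M, 4M and 50, and no label says what the numbers or the letter mark.

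Extraembryonic mesoderm leaves the primitive streak of the embryonic disc and spreads between the trophoblast and the hypoblast. In ruminants it lines the chorion and the yolk sac and later carries the first blood vessels of the membranes. KDR is the main receptor of vascular endothelial growth factor and marks the precursors of endothelium and blood. APLNR is the receptor of the peptides apelin and ELABELA on early mesoderm. FOXF1 is a forkhead transcription factor of lateral and extraembryonic mesoderm, and HAND2 is a basic helix-loop-helix factor of the same tissues. COL1A1 and COL1A2 encode the chains of fibrillar type I collagen. PDGFRB is a platelet-derived growth factor receptor of mesenchyme and of the mural cells of vessels. LMO2 is an adaptor protein that works in a complex with the blood and vessel factor TAL1.

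The libraries held 108851495 to 152570016 reads in the genes of the table, and 1 read was worth 0.00646 to 0.00987 CPM, the authors' unit of reads scaled to a library total that had been adjusted by TMM (trimmed mean of M values). The trophoblast markers were present in every library: all 16 genes of that list reached 1 CPM in all 8 libraries, and the keratin KRT8 was at 6804 to 12585 CPM. Control 10 was the highest of the 8 libraries for 25.4% of all genes and FLI 20 for 21.5%. In tissue RNA, fewer cells of a type and less RNA per cell cannot be told apart.

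Mesoderm transcripts were carried mainly by control 10 and control 20. Each of these libraries had 6 of the 8 genes at 1 CPM or more. FLI 20 had 2 such genes, COL1A1 and PDGFRB, and each of the other 5 libraries had COL1A1 as the 1 such gene. Control 10 was the highest library for 6 genes, and FLI 20 was the highest for PDGFRB and HAND2. For 5 of the 8 genes control 10 and control 20 were the highest and second highest libraries, where 12.9% of all genes of the table show this order or its reverse. That share was 17.9% among the genes whose mean was under that of COL1A1. The choice of the genes used this pattern, so nothing is read from the count. Summed over the 8 genes, control 10 held 60.3% of the CPM of all libraries, control 20 held 12.1%, FLI 50 held 11.1% and each of the rest held 2.79 to 4.24%. COL1A1 made up most of this sum. Without it control 10 held 56.5%, control 20 held 24.2%, FLI 20 held 7.67%, FLI 50 held 2.09% and the rest held 1.25 to 3.19% each.

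**Figure D1:**
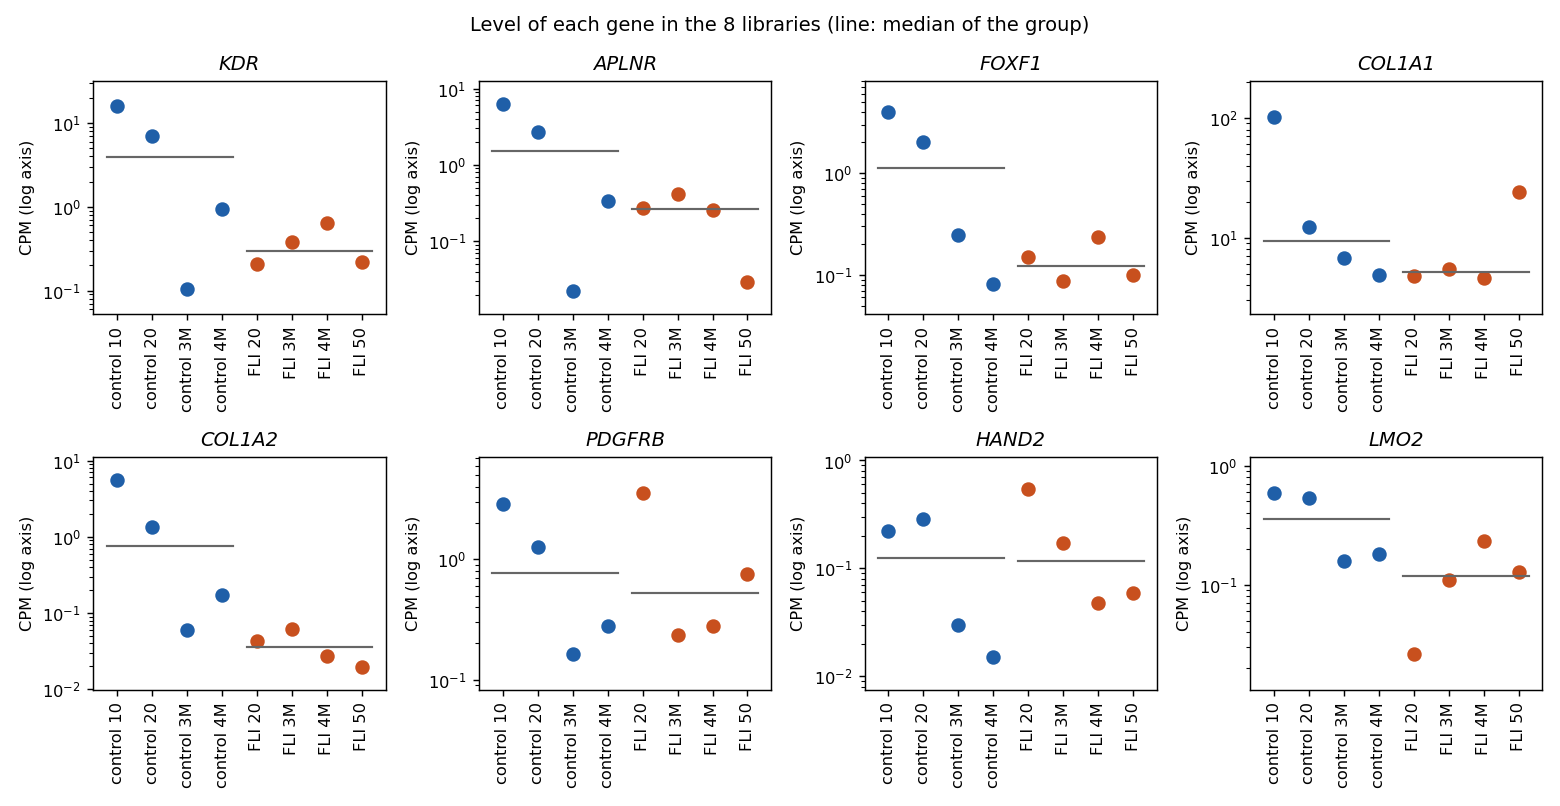
CPM of each of the 8 genes (log axis) in the 4 control libraries (blue) and the 4 FLI libraries (orange), with a line at the median of each group. KDR, APLNR, FOXF1, COL1A2 and LMO2 were highest in control 10 and control 20, COL1A1 stood high in control 10 and FLI 50, and PDGFRB and HAND2 were highest in FLI 20.

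KDR (ENSBTAG00000000782) has 30 exon blocks on the minus strand of chromosome 6, from 70564927 to 70612683 (ARS-UCD1.2, the build of all positions here). The controls 10, 20, 3M and 4M had 15.9, 7.02, 0.104 and 0.943 CPM. In the FLI libraries it was 0.210, 0.377, 0.645 and 0.217 CPM in 20, 3M, 4M and 50. The controls 10 and 20 were above all other libraries, control 20 by a factor of 7.45 over control 4M, the next in order. Control 3M was the lowest of all 8, below each FLI library, so the groups overlapped. The group levels were 5.99 ± 7.29 CPM in control and 0.362 ± 0.204 CPM in FLI (SD, n = 4 each), a difference of -1.93 on the log2(CPM + 0.5) scale (SE 0.93).

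APLNR (ENSBTAG00000027516, chromosome 15, 80445007 to 80448574, minus strand) is a gene of 1 exon block. It stood at 6.26, 2.73, 0.0224 and 0.337 CPM in the controls 10, 20, 3M and 4M. The FLI libraries had 0.271, 0.416, 0.261 and 0.0296 CPM in 20, 3M, 4M and 50. The lowest values, in control 3M and FLI 50, rest on 3 reads each. As with KDR, control 10 and control 20 stood above the rest and control 3M was lowest, while control 4M lay inside the FLI range, so the groups overlapped. The log2(CPM + 0.5) difference was -1.27 (SE 0.74).

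PDGFRB followed a different order, with FLI 20 at the top. PDGFRB (ENSBTAG00000002804, chromosome 7, 61474501 to 61511284, minus strand) was at 2.87, 1.26, 0.164 and 0.277 CPM in control 10, 20, 3M and 4M and at 3.57, 0.236, 0.281 and 0.760 CPM in FLI 20, 3M, 4M and 50. FLI 20 exceeded control 10 by a factor of 1.24 (counting interval 1.08 to 1.43). The 4 libraries with titles ending in M were the 4 lowest. The group means were 1.14 ± 1.25 CPM in control and 1.21 ± 1.59 CPM in FLI (SD, n = 4 each), and the log2(CPM + 0.5) difference of -0.01 (SE 0.68) was far smaller than its error.

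FOXF1 (ENSBTAG00000000009, chromosome 18, 12338037 to 12342272, plus strand) was at 4.01, 2.02, 0.246 and 0.0823 CPM in control 10, 20, 3M and 4M. In FLI 20, 3M, 4M and 50 it was at 0.149, 0.0864, 0.233 and 0.0987 CPM. Control 20 stood 8.22 times above control 3M, the highest of the remaining libraries, and here control 4M was lowest, so the groups overlapped. The log2(CPM + 0.5) difference was -1.22 (SE 0.61).

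HAND2 (ENSBTAG00000044123, chromosome 8, 5898320 to 5901264, minus strand) did not reach 1 CPM in any library. Its level was 0.220, 0.284, 0.0298 and 0.0150 CPM in control 10, 20, 3M and 4M and 0.542, 0.173, 0.0481 and 0.0592 CPM in FLI 20, 3M, 4M and 50. The highest value, in FLI 20, rests on 62 reads and the lowest, in control 4M, on 2. The groups overlapped, and the log2(CPM + 0.5) difference was 0.12 (SE 0.24). HAND2 in FLI 20 was 2.46 times its level in control 10 (1.56 to 3.96 by counting error). KDR, APLNR, FOXF1, COL1A2 and LMO2 stood at 0.00778 to 0.0442 times their control 10 level in FLI 20. COL1A1, with 550 reads, had more reads in FLI 20 than PDGFRB (409), at 0.0473 times its control 10 level.

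LMO2 (ENSBTAG00000006951, chromosome 15, 64472394 to 64485114, minus strand) was low throughout. It was at 0.593, 0.530, 0.157 and 0.180 CPM in control 10, 20, 3M and 4M and at 0.0262, 0.110, 0.233 and 0.128 CPM in FLI 20, 3M, 4M and 50. Control 10 and control 20, with 78 and 82 reads, did not differ beyond counting error (ratio 1.12, 0.809 to 1.54), and FLI 20 was lowest with 3 reads. FLI 4M stood above control 3M and control 4M, so the groups overlapped. The log2(CPM + 0.5) difference was -0.44 (SE 0.21).

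The chains of type I collagen did not share 1 pattern. COL1A2 (ENSBTAG00000013472, chromosome 4, 11776554 to 11812997, plus strand) was at 5.61, 1.36, 0.0597 and 0.172 CPM in the controls 10, 20, 3M and 4M. It was near the detection limit in FLI, with 5, 8, 4 and 2 reads in FLI 20, 3M, 4M and 50 (0.0437, 0.0628, 0.0275 and 0.0197 CPM). Control 3M, with 8 reads, lay inside the FLI range. Its log2(CPM + 0.5) difference was -1.42 (SE 0.68), and on this scale the pseudocount shrinks the difference of so low a gene: with a pseudocount of 0.05 it was -2.93.

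COL1A1 (ENSBTAG00000013103, chromosome 19, 36457658 to 36474513, plus strand) was found in every library. It was at 101.5, 12.2, 6.75 and 4.93 CPM in the controls 10, 20, 3M and 4M, and at 4.81, 5.49, 4.61 and 23.9 CPM in FLI 20, 3M, 4M and 50. Apart from control 10, control 20 and FLI 50 the libraries lay between 4.61 and 6.75 CPM, a range shared by both groups. FLI 50 stood above control 20. The log2(CPM + 0.5) difference was -0.92 (SE 0.93). It was -0.00054 (SE 0.59) without control 10 and -1.46 (SE 0.94) without FLI 50. Each of these is the highest library of its group, so the direction of each change was given by that choice. Per kilobase of exon, COL1A1 exceeded COL1A2 by a factor of 9.68 in control 20, 19.6 in control 10 and 31.0 in control 4M. The factor was 94.6 to 182 in control 3M and in FLI 20, 3M and 4M, and 1312 in FLI 50, where it rests on 2424 reads of COL1A1 and 2 of COL1A2. The ratio of reads, not divided by exon length, was 1212 in FLI 50, with a counting interval (95%, exact binomial) of 335 to 10014. That ratio was 18.1 (16.8 to 19.5) in control 10 and 8.94 (7.75 to 10.4) in control 20. In FLI 50 the higher COL1A1 thus came with the lowest COL1A2 of the series. Intervals cover counting error only.

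**Figure D2:**
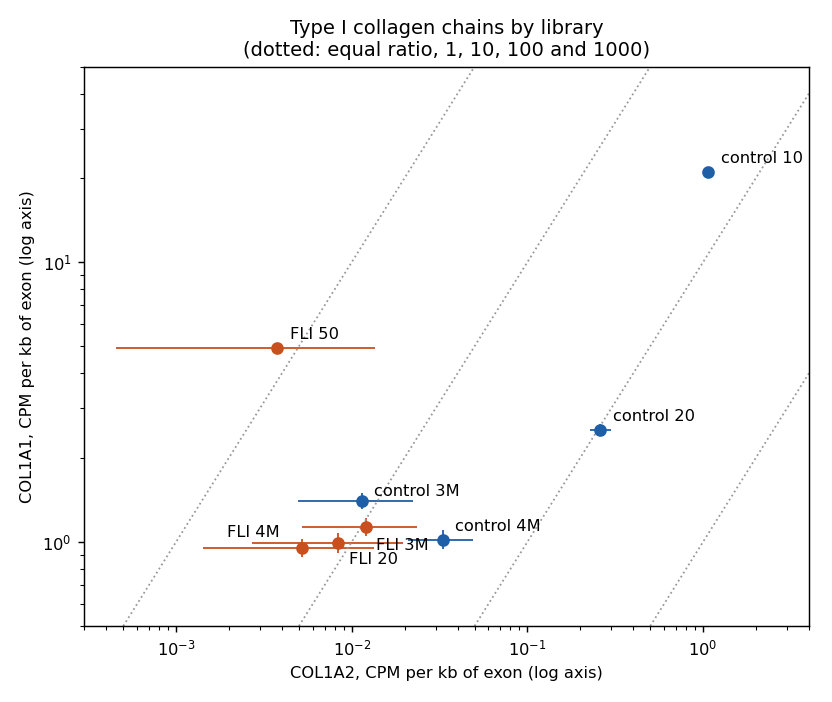
COL1A1 against COL1A2 in CPM per kb of exon (both axes log), 1 point per library, with exact 95% Poisson intervals of the reads and dotted lines of equal ratio. Control 10 and control 20 lie at the right with both chains present, and FLI 50 lies at upper left with a COL1A1 of 4.95 and a COL1A2 of 0.00377 CPM per kb.

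The controls 10 and 20 differed in how much they held of most of these genes. The ratio of control 10 to control 20 was 2.27 for KDR (counting interval 2.10 to 2.44), 2.29 for APLNR (2.04 to 2.59), 2.28 for PDGFRB (1.91 to 2.72) and 1.98 for FOXF1 (1.72 to 2.29), and these 4 intervals overlap. The ratio was larger for the collagens, 4.12 for COL1A2 (3.53 to 4.82) and 8.33 for COL1A1 (7.93 to 8.74). For HAND2 it was 0.775 (0.467 to 1.27) and for LMO2 1.12 (0.809 to 1.54), intervals that include equal levels. Per kilobase of exon, the order of levels in control 10 was COL1A1 (21.0 CPM per kb), KDR (1.79), APLNR (1.75), FOXF1 (1.43), COL1A2 (1.07), PDGFRB (0.586), LMO2 (0.328) and HAND2 (0.137). KDR and APLNR, with intervals of 1.71 to 1.87 and 1.64 to 1.88, did not differ beyond counting error, and neither did they in control 20 (0.789 and 0.765 CPM per kb). In FLI 20 the order per kilobase began with COL1A1 (0.993), PDGFRB (0.729) and HAND2 (0.336), and APLNR followed at 0.0759 CPM per kb.

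The comparison of FLI with control asked what the 3 factors do to transcript levels. Over all 15267 genes limma called 0 at an adjusted p of 0.05 (0% of the table), and 461 had an unadjusted p under 0.05 (3.02%). In limma 0 of the 8 were among these. The groups overlapped for all 8 genes, where 1.6% of all genes do not overlap. The mean log2 level was lower in FLI for 7 of 8 genes, where 51.4% of all genes are lower, and the median difference was -1.07, beside -0.01 over all genes. By the edgeR quasi-likelihood test on recovered reads the count was 0 as well (0%), and 626 genes (4.1%) had an unadjusted p below that threshold, among them 4 of the 8 (KDR, APLNR, FOXF1 and COL1A2). DESeq2 called 14 genes (0.0971%) and the edgeR likelihood ratio test 33 with robust weights (0.216%) and 6 without (0.0393%). Of the 8 genes COL1A2 was called by DESeq2 and with robust weights, and in DESeq2 the unadjusted p was under 0.05 for the same 4 of the 7 with a p (6.11% of all genes). Since the choice of the genes used these levels, nothing is read from their counts. In the authors' deposited table COL1A2 has a log2 fold change of -4.45 and an adjusted p of 0.00818, as 1 of 32 genes called (0.21%), of which 8 are lower in FLI (0.0524%). The authors' deposited table gives KDR -3.56 (adjusted p = 0.0693), FOXF1 -3.10 (adjusted p = 0.131) and APLNR -2.86 (adjusted p = 0.429). It gives LMO2 -1.54 (adjusted p = 0.889), COL1A1 -0.68, PDGFRB -0.41 and HAND2 0.21. No label says that the pieces came from separate animals or cultures, so each p measures only the spread between these libraries.

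Without control 10 and control 20 the differences of 5 genes were small. On the log2(CPM + 0.5) scale they were -0.14 (SE 0.38) for KDR, 0.14 (SE 0.28) for APLNR, -0.04 (SE 0.18) for FOXF1, -0.19 (SE 0.14) for COL1A2 and -0.11 (SE 0.17) for LMO2. COL1A1 turned to 0.34 (SE 0.66) and PDGFRB to 0.87 (SE 0.67), the latter resting on FLI 20. HAND2 was at 0.38 (SE 0.28). The median over the 8 genes was then 0.05. Among the 4 libraries with titles ending in M it was 0.04, and among the 4 ending in 0 it was -2.05. The titles of both these controls end in 0, and so do FLI 20 and FLI 50, in which KDR, APLNR, FOXF1 and COL1A2 were low. The lower group level of these 4 genes in FLI rests on those 2 control libraries, which were left out because they were highest for these genes, so a smaller difference without them was given by that choice.

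**Figure D3:**
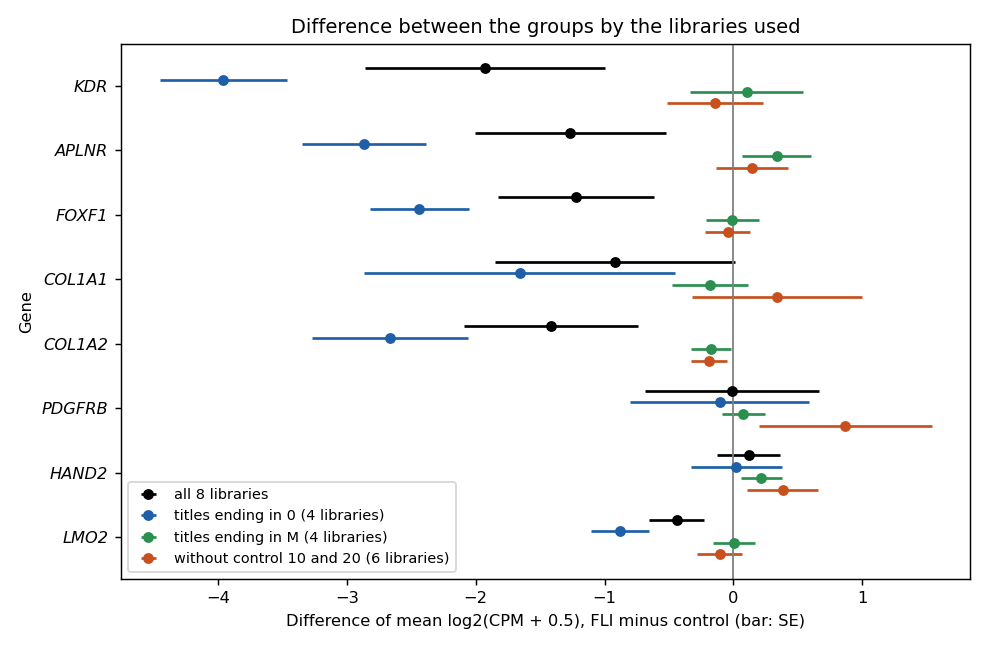
Difference of mean log2(CPM + 0.5), FLI minus control, for each gene with its SE, from all 8 libraries and from subsets of them. KDR, APLNR, FOXF1 and COL1A2 lie between -1.93 and -1.22 with all libraries and between -0.19 and 0.14 without control 10 and control 20.

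Over the 8 libraries the levels of KDR, APLNR, FOXF1 and COL1A2 ran in parallel, with Pearson correlations of log2(CPM + 0.5) from 0.958 to 0.982 between pairs. The correlations are given as a description, since control 10 and control 20 set them: over the other 6 libraries they ran from -0.413 to 0.652. PDGFRB and HAND2 correlated at 0.834 over 8 libraries and at 0.884 over those 6, where FLI 20 is the high point. The 8 other genes of the table most like the mean of the mesoderm genes were BOLA-DRA, NPNT, LRRC55, SMAD9, PSMB8, RGS9BP, QPRT and FZD2, with correlations of 0.981 to 0.986 over the 8 libraries and of 0.492 to 0.854 over those 6. In control 10 and control 20 NPNT, which encodes the matrix protein nephronectin, was at 22.1 and 4.80 CPM, with no more than 1.08 CPM elsewhere. SMAD9, a transducer of BMP signals, was at 1.15 and 0.743 CPM and at most 0.306 CPM elsewhere. FZD2, a WNT receptor, was at 9.13 and 6.10 CPM and at most 2.39 CPM elsewhere. BOLA-DRA, the nearest of the 8, was at 1.09 and 0.401 CPM and at most 0.131 CPM elsewhere. PSMB8 was at 2.55 and 1.22 CPM and at most 0.503 CPM elsewhere. QPRT (16.2 and 6.57 CPM, at most 2.34 CPM elsewhere) and RGS9BP (3.02 and 1.39 CPM, at most 0.786 CPM elsewhere) had the same order.

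The nearest single genes differed between the members. KDR was most like LEF1, a WNT transcription factor, which stood at 2.86 and 1.43 CPM in control 10 and control 20 and no higher than 0.180 CPM elsewhere. Its correlation was 0.996, and 0.976 over the other 6 libraries. FOXF1 was most like STMN1 (0.993), a regulator of microtubules, APLNR most like FZD2 (0.9899) and COL1A2 most like LRRC55 (0.993). LMO2 was most like CNTFR (0.985), the receptor of ciliary neurotrophic factor, and COL1A1 most like MPIG6B (0.987). PDGFRB was most like SGSM2 (0.989) and HAND2 most like MYCBPAP (0.966). Over the other 6 libraries the correlations were 0.785 (STMN1), 0.778 (FZD2), 0.0356 (LRRC55), 0.934 (CNTFR), 0.947 (MPIG6B), 0.989 (SGSM2) and 0.973 (MYCBPAP). Each nearest gene was picked for the highest correlation over the 8 libraries, so high values were given by that choice.

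LRRC55 is also the gene before APLNR on chromosome 15, on the opposite strand and 56.2 kb away. The levels of these neighbours correlated at 0.977 over the 8 libraries. LRRC55 had 1.28 and 0.530 CPM in control 10 and control 20 and no more than 0.0412 CPM (6 reads) elsewhere. This correlation therefore rests on control 10 and control 20. The gene on the other side of APLNR, TNKS1BP1, was at 146 to 242 CPM in all libraries (correlation 0.218). The gene before KDR was KIT, the receptor of stem cell factor, 311 kb away, which was highest in control 10 at 513 CPM but was present in every library (23.8 to 162 CPM in the others). The 2 members on chromosome 15, APLNR and LMO2, are not neighbours, and 0 of the 8 genes overlapped the gene before or after it in the table.

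**Figure D4:**
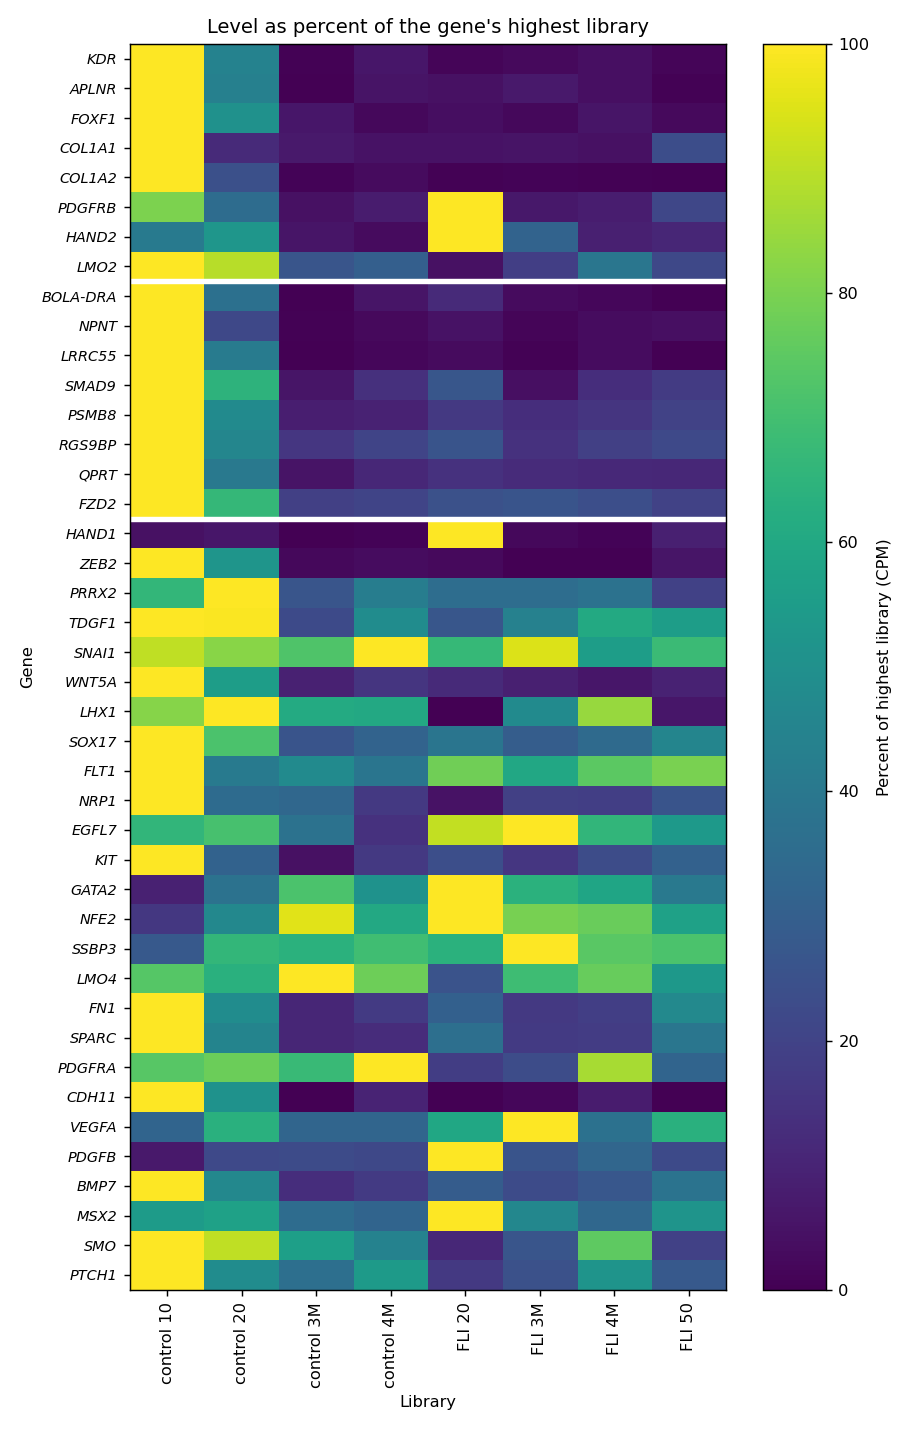
Level of each gene in each library as percent of its highest library (colour), for the 8 mesoderm genes (top block), the 8 genes most like their mean (middle block) and the genes named from related lists (bottom block). Control 10 is at 100% for most rows of the top blocks, and HAND1, GATA2, PDGFB and MSX2 peak in FLI 20 together with PDGFRB and HAND2.

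Other genes of the same tissues were taken as lists, written with earlier results of these data known. Of all genes, 12.9% had control 10 and control 20 as the 2 highest libraries, and 51.4% were lower in FLI. These shares stand beside the counts of every list below. Of 25 mesoderm and mesenchyme transcription factors 16 were in the table, of which 7 were higher and 9 lower in FLI and 0 of them had an unadjusted p under 0.05. The highest libraries were control 10 and control 20 for 6 of the 16. ZEB2, which drives epithelial cells towards mesenchyme, had 0.707 and 0.368 CPM in those libraries and no more than 0.0395 CPM elsewhere. PRRX2, a homeobox factor of mesenchyme, was at 1.12 and 1.69 CPM there and 0.326 to 0.718 CPM elsewhere. HAND1, the paralogue of HAND2 that is also a trophoblast factor, was at 526 CPM in FLI 20, 46.3 CPM in FLI 50 and at most 31.0 CPM in the rest. FLI 20 was thus the highest library for both HAND genes.

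Of 18 primitive streak genes 16 were in the table, and 14 of these were lower in FLI, with a median of -0.26, and for 5 of them control 10 and control 20 were the highest libraries. WNT5A, a ligand that guides mesoderm movement, had 3.47 and 1.94 CPM in those libraries and no more than 0.531 CPM elsewhere. TDGF1, a co-receptor of NODAL, was at 181 and 179 CPM in control 10 and control 20 and 40.8 to 110 CPM elsewhere. LHX1, a factor of the gastrula organizer, had 0 reads in FLI 20, where the count allows at most 0.0262 CPM, and was at 0.0691 CPM in FLI 50 and 0.550 to 1.14 CPM in the others. SNAI1 was even, at 4.88 to 8.77 CPM. The following streak genes were named after their values were seen. TBXT, the brachyury factor of nascent mesoderm, had 0 reads in control 3M, FLI 20 and FLI 50 and 0.974 to 3.07 CPM in the other 5 libraries. EOMES had 0 reads in FLI 20, 0.0197 CPM in FLI 50, 0.49997 CPM in control 3M and 1.55 to 4.76 CPM in the others. FLI 3M, FLI 4M and control 4M thus carried streak transcripts with KDR at 0.377 to 0.943 CPM. MESP2, a factor of early mesoderm, stood at 7.72 CPM in FLI 20 and at most 1.07 CPM elsewhere.

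Of 26 endothelial genes 17 were in the table, and 11 were lower in FLI with a median of -0.32, and 7 of 17 had control 10 and control 20 as the highest libraries. NRP1, a co-receptor of KDR, was at 6.14 CPM in control 10, 2.15 CPM in control 20 and 0.297 to 2.05 CPM elsewhere. FLT1, another receptor of vascular endothelial growth factor, was present in every library, from 20.2 CPM in control 4M to 52.1 CPM in control 10. SOX17, a factor of endoderm and of arterial endothelium, was at 53.9 and 38.7 CPM in control 10 and control 20 and 13.9 to 24.5 CPM elsewhere. EGFL7, a secreted endothelial protein, was at 0.195 to 1.37 CPM with no such order. Chosen after their values were seen, FLI1, an ETS factor, was at 1.37 and 0.226 CPM in control 10 and control 20 and at most 0.0275 CPM elsewhere, and TEK, the angiopoietin receptor, was at 2.28 and 0.731 CPM and at most 0.240 CPM elsewhere. Other endothelial genes, chosen in the same way, had other orders. PECAM1 was highest in FLI 50 (5.55 CPM) and FLI 20 (4.40 CPM), with 2.93 and 3.28 CPM in control 10 and control 20. VWF was highest in FLI 20 (2.03 CPM), and ETV2 was at 1.32 to 2.01 CPM in all 8 libraries. CDH5 was not analysed here.

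Blood genes were mixed in their order. Of 25 names 10 were in the table, of which 7 were higher in FLI, and for 2 of 10 control 10 and control 20 were the highest libraries, beside 12.9% of all genes. KIT was 1 of these, at 513 and 162 CPM. GATA2, a factor of blood stem cells that trophoblast also uses, was lowest in control 10 (44.2 CPM) and 184 to 491 CPM elsewhere, and NFE2 was likewise lowest there (5.64 CPM against 16.1 to 34.5 CPM). Chosen after their values were seen, RUNX1, a factor of emerging blood cells, was at 2.55 CPM in control 10 and 0.231 to 0.632 CPM elsewhere, and SPI1, a myeloid factor, was at 5.39 and 2.53 CPM in control 10 and control 20 and 0.784 to 2.32 CPM elsewhere. ALAS2, the erythroid enzyme of heme synthesis, was at 66.6 CPM in FLI 20 and at most 4.06 CPM elsewhere. Among 8 of 11 partners in the table of TAL1 and LMO2, 4 were higher and 4 lower, all 8 reached 1 CPM in every library, and SSBP3 (55.9 CPM in control 10, 127 to 199 CPM elsewhere) and LMO4 (24.6 CPM in FLI 20, 51.2 to 95.7 CPM elsewhere) had their lowest level in different libraries.

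The matrix and mesenchyme list shared much of the mesoderm genes' order. For 18 of its 29 genes in the table (of 32) the highest libraries were control 10 and control 20, beside 12.9% of all genes. In FLI 21 were lower and 8 higher, with a median of -0.31 that became 0.30 without control 10 and control 20. Those libraries were the highest for most of these genes, so a rise without them was given by that choice. FN1, fibronectin, over which mesoderm migrates, was at 31976 and 15489 CPM in control 10 and control 20, 15008 CPM in FLI 50, 9865 CPM in FLI 20 and 3408 to 5991 CPM in the rest. SPARC, a collagen-binding protein, was at 2152 and 973 CPM in the same controls, 846 CPM in FLI 50 and 231 to 790 CPM in the rest. FLI 50 came next after the 2 controls for both genes, and for COL1A1 it came next after control 10. CDH11, a cadherin of mesenchyme, was at 6.38 and 3.25 CPM in them, 0.629 CPM in control 4M, 0.494 CPM in FLI 4M and at most 0.110 CPM in the others. PDGFRA, the relative of PDGFRB, went its own way with 16.9 to 25.003 CPM in the controls, a level of 21.7 CPM in FLI 4M, and 4.55 to 8.02 CPM across FLI 20, 3M and 50. Its difference of -1.20 (SE 0.43) had an unadjusted p of 0.0214 in limma and an adjusted p of 0.953. Named after their values were seen, VIM, the intermediate filament of mesenchyme, was at 5.84 and 2.94 CPM in control 10 and control 20 and at most 0.844 CPM elsewhere, COL5A2 was at 12.7 CPM in control 10 and at most 0.789 CPM elsewhere, and COL3A1, a fibrillar collagen, was highest in FLI 20 at 0.655 CPM. THY1, a surface protein of mesenchyme, was at 8.37 CPM in FLI 20 and at most 0.983 CPM elsewhere.

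The ligands of these receptors had orders of their own. For 0 of 6 ligand genes were control 10 and control 20 the highest libraries, and 4 of 6 were higher in FLI with a median of 0.23. VEGFA, the ligand of KDR, was lowest in control 10 (70.0 CPM), close to control 3M and control 4M (70.7 and 70.8 CPM), and highest in FLI 3M (217 CPM). PDGFB, the ligand of PDGFRB, was lowest in control 10 (4.51 CPM), between 14.3 and 21.9 CPM in 6 libraries and highest in FLI 20 (66.2 CPM), where PDGFRB was highest too. Chosen after their values were seen, APELA, which encodes ELABELA, was at 0.149 CPM in control 3M, the library with the lowest APLNR, and at 4.60 CPM in control 20, 3.47 CPM in FLI 20 and 2.85 CPM in control 10, and APLN stayed at 0.00760 to 0.402 CPM.

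Hedgehog and BMP genes, which signal from endoderm and trophoblast to mesoderm and include factors upstream of FOXF1, were highest in control 10 and control 20 for 9 of 16. BMP7 was at 184 and 85.8 CPM in control 10 and control 20 and 24.3 to 70.0 CPM elsewhere. PTCH1, the hedgehog receptor and target, was at 23.8 and 11.6 CPM in those controls, 13.0 CPM in control 4M and 3.98 CPM in FLI 20, the lowest. SMO, the hedgehog transducer, was at 11.03 and 9.97 CPM in control 10 and control 20 and 1.23 CPM in FLI 20. SMO and PTCH1 passed an unadjusted p of 0.05 in limma (adjusted p = 0.953 for both). MSX2, a target of BMP, was highest in FLI 20 (129 CPM, others 41.8 to 73.8 CPM). IHH and BMP4, named after their values were seen, followed control 10 and control 20 as well. In these libraries IHH had 50.2 and 26.7 CPM (no more than 19.6 CPM elsewhere) and BMP4 had 75.5 and 27.1 CPM (no more than 24.6 CPM elsewhere).

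Some markers of hypoblast and epiblast were also highest in control 10 and control 20, while others had another order. The part of these tissues in the levels above was not tested. The 22 hypoblast and yolk sac genes summed to 11454 CPM in control 10, 5350 CPM in control 20, 6527 CPM in FLI 20, 4081 CPM in FLI 50 and 1114 to 2505 CPM in the rest. Their summed range was 1114 to 11454 CPM in control and 1870 to 6527 CPM in FLI, and 12 of the 22 were highest in control 10 and control 20. Among them APOA1 was at 6183 CPM in control 10 and 437 to 2702 CPM elsewhere, FETUB was highest in FLI 20 (1877 CPM), FOXA1 was even (23.7 to 43.2 CPM), and AFP had 4.76 and 10.6 CPM in control 10 and control 20, 2 reads in FLI 3M and 0 reads in the rest. AFP, alpha-fetoprotein of the yolk sac, was thus carried by the same 2 controls as KDR. The 11 epiblast genes summed to 545 and 422 CPM in control 10 and control 20 and 142 to 303 CPM elsewhere. Of the 11, 10 were lower in FLI, with a median of -0.57, and 6 were highest in control 10 and control 20. POU5F1 was at 23.0 and 32.7 CPM there, 1.42 CPM in FLI 20, 1.01 CPM in FLI 50 and 4.80 to 17.4 CPM elsewhere. LIN28A was at 170 and 107 CPM in control 10 and control 20 and 38.7 to 83.7 CPM elsewhere.

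The smooth muscle and pericyte list, whose cells carry PDGFRB in many tissues, summed to 1051 CPM in control 10, 684 CPM in control 20, 524 CPM in FLI 50 and 25.6 to 236 CPM in the rest. Most of the sum was TAGLN, an actin-binding protein (983, 640 and 487 CPM in control 10, control 20 and FLI 50, 15.9 to 215 CPM elsewhere), and ACTA2, smooth muscle actin, was also highest in these libraries (33.1 CPM in control 10, then 19.3 CPM in FLI 50 and 15.7 CPM in control 20). CSPG4, a defining pericyte gene, was at 0.0592 to 0.395 CPM in all libraries and NOTCH3 at 2.31 to 7.23 CPM. FLI 20, the library of highest PDGFRB, had 202 CPM of TAGLN.

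For trophectoderm 1 of 16 genes had control 10 and control 20 as the highest libraries, and 15 of 16 were higher in FLI, with a median of 0.85. PAG2, a pregnancy-associated glycoprotein of trophoblast, was at 183 to 675 CPM in control and 698 to 2519 CPM in FLI, groups that did not overlap, a difference of 2.13 (SE 0.48) with an adjusted p of 0.953 in limma. It was lowest in control 10, and so was PAG11 (2085 CPM against up to 22834 CPM in FLI 3M), and PTGS2 was lowest in control 4M (104 CPM). The 9 endometrial genes, a check for uterine tissue, summed to 83.1 CPM in control 10, 46.2 CPM in FLI 20, 45.6 CPM in FLI 50, 44.9 CPM in control 20 and 21.1 to 28.1 CPM in the rest. For 5 of the 9 control 10 and control 20 were the highest libraries, as for the mesoderm genes, and the part of such tissue in the levels above was not tested. MUC1 (10.9 to 51.5 CPM) and FOXA2 (4.50 to 22.9 CPM), which also belong to conceptus epithelia, made up most of that sum. FOXL2 was at 0.182 to 3.16 CPM and PAX8 at 0.725 to 2.46 CPM. The 6 leukocyte genes of the table summed to 153 CPM in FLI 20 and 10.7 to 28.8 CPM elsewhere. Of that sum ITGB2, the beta chain of leukocyte integrins, was 112 CPM, with at most 1.65 CPM elsewhere. CD3D was at most at 0.485 CPM. PTPRC, the defining leukocyte gene, was not analysed here.

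**Figure D5:**
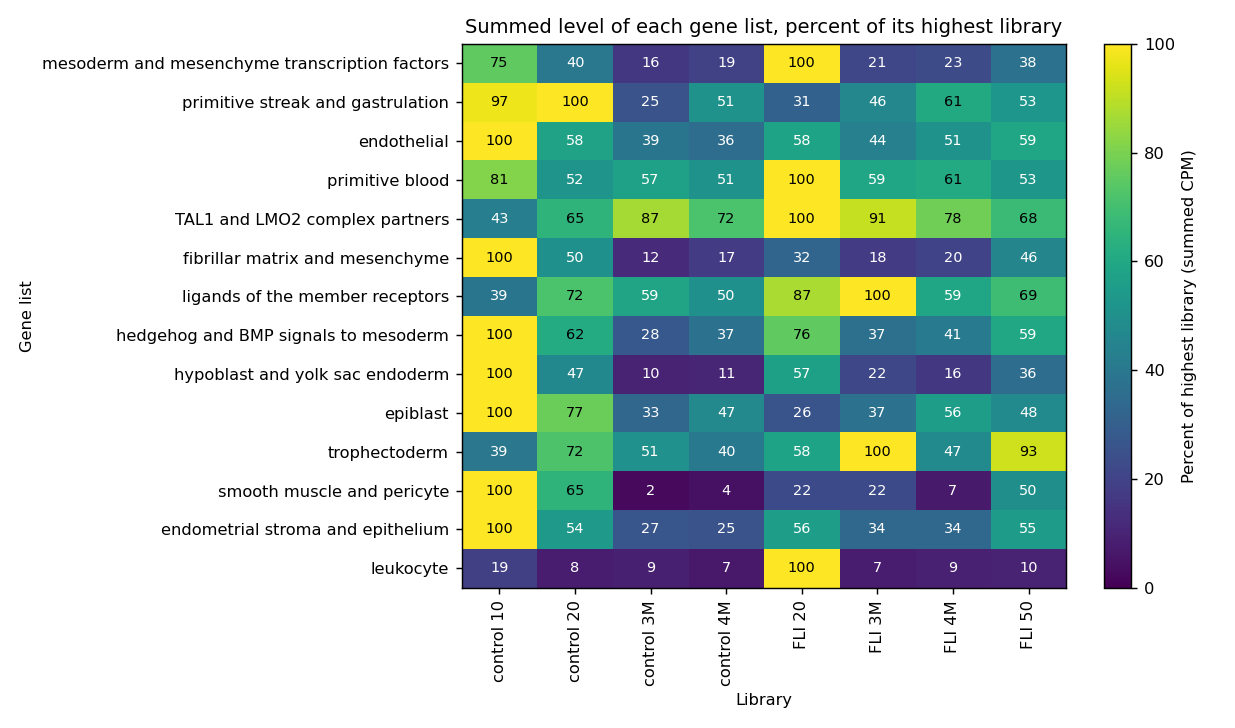
Summed CPM of each gene list in each library as percent of the list's highest library (printed in each cell). The matrix, hypoblast, epiblast, smooth muscle, hedgehog and BMP, endothelial and endometrial lists are at 100% in control 10, the leukocyte, blood, mesoderm factor and TAL1 partner lists in FLI 20, the trophectoderm and ligand lists in FLI 3M and the streak list in control 20. Single genes make up most of the FLI 20 sums and of some control 10 sums. HAND1 was 526 of the 821 CPM of the mesoderm factor list there. GATA2 was 491 CPM, of 735 CPM in the blood list and 899 CPM in the TAL1 partner list. ITGB2 was 112 of the 153 CPM of the leukocyte list. In control 10 FN1 was 31976 of the 39268 CPM of the matrix list. APOA1 was 6183 of the 11454 CPM of the hypoblast list there, and TAGLN was 983 of the 1051 CPM of the smooth muscle list.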

How the data were processed

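Poly-A RNA of 8 libraries was measured, 4 to a group, with groups from the treatment labels. The submitters' processing notes name HISAT2, featureCounts, edgeR and the build ARS-UCD1.2 without versions or a strand setting, although the labels call the libraries stranded. The deposited signal is the authors' CPM over TMM-adjusted totals: 100% of values were whole multiples of 1 step per column (tolerance 0.001), so reads were recovered. The lowest gene total was 112 reads, so genes of fewer reads were not analysed here. The authors' deposited table also holds a log2 fold change, a test score (likelihood ratio) and p-values, raw and adjusted, per the file headers, and an exon length (another unit, in bases).

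limma 3.58.1 (R 4.3.3, eBayes with trend) was fitted to log2(CPM + 0.5) of all 15267 genes, without a filter because 1 CPM in 4 libraries would have kept 1 of the 8 genes, with two-sided tests and Benjamini-Hochberg adjustment at 0.05. edgeR 4.0.16 and DESeq2 1.42.0 on recovered reads were alternatives, and scripts were tested on simulated data. Counting intervals are exact (95%), and 0 reads allow 3. Members, lists and the rule for names were chosen with earlier results of these data known. By that rule the text names the members, in each list the 2 genes of highest level in any library and the 2 of smallest p, the 8 genes most correlated with the members' mean and each member's nearest gene, and some of these genes are not reported here. Exon blocks are merged exons of the table.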

Additional observations from a re-analysis of the deposited data

Results flagged for a closer look

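For 3 of 16 sets of 4 values of the mesoderm genes, 1 library stood far from the other 3 of its group in CPM, by the gap to its nearest neighbour as a fraction of the whole range. Chance flags about 1 in 20 groups, but the genes were selected on these levels, so the count is not set against that rate. COL1A1 in control 10 (101.5 CPM) had a fraction of 0.925, COL1A1 in FLI 50 (23.9 CPM) one of 0.954 and PDGFRB in FLI 20 (3.57 CPM) one of 0.843. On the log2(CPM + 0.5) scale, examined after the values were seen, the fractions were 0.711, 0.898 and 0.686, and COL1A1 in FLI 50 alone still passed the limit. The cause of each was not tested.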

How the results depend on the processing

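The count of genes called in FLI against control was 0 under both other pseudocounts, the filter, library size alone as the scaling, either title subset and without control 10 and control 20 (an alternative chosen after seeing the data). It was 6 with the edgeR likelihood ratio test without weights (also added after seeing the data), 33 with robust weights and 14 with DESeq2, and 0 to 1 with 1 library left out, the 1 call being made without control 3M. The median difference of the 8 genes turned from -1.07 to 0.040 among titles ending in M and 0.050 without control 10 and control 20. With 1 library left out it ran from -1.52 to -0.47. Among titles ending in M 4 of the 8 changed sign (KDR 0.10, APLNR 0.34, LMO2 0.0017 and PDGFRB 0.08), without control 10 and control 20 3 did (APLNR, COL1A1 and PDGFRB), and in the other fits at most 1 did (PDGFRB or HAND2). The title numbers 20, 3M and 4M occur in both groups, and the correlations of each pair's deviations from its group were 0.0992, 0.287 and 0.303. Without the correlations between unlike numbers beside them, these values cannot decide whether the numbers pair the libraries. The main fit used no pairing. With the title number as a replicate block on 6 libraries, 0 genes were called and the median of the 8 genes was -0.50. Of the summed level, control 10 held 62.1%, FLI 20 3.98%, FLI 3M 2.76% and FLI 50 10.05% with library size alone, and control 10 held 59.2%, FLI 20 4.71% and FLI 3M 3.27% per kilobase. Values of COL1A2, HAND2, APLNR and LMO2 under 10 reads are limited by counting error.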
